A study of Homo sapiens with 12 samples.

Results

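Genes of enzyme families that clear aldehydes and other carbonyl compounds were followed in H1299 cells after hyperoxia. H1299 is an established line grown from a human non-small cell lung carcinoma and labelled lung adenocarcinoma. The members were rows of the deposited gene table whose symbol matched a pattern for the families ALDH, AKR, CBR, DHRS, PTGR or ADH. The pattern was chosen with earlier results of these data known. It did not take in every gene of these families, and ALDH2, AKR7L, DHRS7B, DHRS7C, DHRSX, DHRS4L1 and DHRS4L2 were outside it. The pattern found 51 genes, ALDH1L2 was left out, and 50 of the 59577 genes of the table remained. They comprised 17 aldehyde dehydrogenases (ALDH), 12 aldo-keto reductases (AKR), 3 carbonyl reductases (CBR), 9 short-chain dehydrogenases of the DHRS series, 2 prostaglandin reductases (PTGR) and 7 alcohol dehydrogenases (ADH). The hyperoxia group (n = 6) was kept at 60% oxygen with 5% CO2 and 35% nitrogen, and the normoxia group (n = 6) at 21% oxygen with 5% CO2 and 74% nitrogen. The protocol gives the hyperoxia as lasting 24, without a unit but read here as hours, and gives no time for the normoxia samples. Both groups are the same line, so the comparison holds for 1 cell line. Separate cultures are not named in the labels, so the p-values cover the spread among the deposited samples alone, and that spread may be technical.

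Reactive aldehydes, formaldehyde among them, arise when membrane lipids are oxidised, when amino acids, choline and polyamines are broken down, and from sugars. Most aldehyde dehydrogenases oxidise them to acids, whereas aldo-keto reductases, carbonyl reductases and most DHRS enzymes reduce them to alcohols with NADPH. Prostaglandin reductases instead saturate the carbon-carbon double bond of enals and keto-prostaglandins. Several of these genes, among them AKR1B10, AKR1C1 to AKR1C3, CBR1, CBR3 and PTGR1, are known in other cells as targets of the oxidative stress factor NRF2, and high AKR1 levels are known from lung tumours in which that factor is always active.

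Expression was measured by RNA sequencing and deposited as TPM, an abundance per gene length that is scaled to a common total in each sample. Sequencing depth cannot be read from TPM and is unknown here, so a value of 0 has no counting limit. Of the 10 epithelial and lung adenocarcinoma markers examined, KRT8, KRT18 and KRT7 averaged at least 1 TPM, whereas EPCAM, CDH1, KRT19, NKX2-1, NAPSA and SFTPB stayed below 1 TPM in all 12 samples and SFTPC was listed at 0. All 4 mesenchymal markers averaged at least 1 TPM, with vimentin (VIM) between 2750 and 3523 TPM. Summed endothelial markers did not exceed 1.55 TPM, summed hepatocyte markers 0.54 TPM and summed fibroblast markers 2 TPM in any sample. Summed leukocyte markers reached 39.2 to 50.9 TPM, nearly all from CD68 (39.15 to 50.75 TPM), while PTPRC and LYZ stayed below 1 TPM and CD3E was listed at 0. On the first principal component of all tested genes (20.7% of the variance) normoxia replicates 4 to 6 lay between -0.55 and -0.31 and normoxia replicates 1 to 3 between -0.16 and -0.09, against 0.19 to 0.33 for hyperoxia. The labels name no batch. The counts of members called are therefore also given without either set of 3.

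In hyperoxia 5 members rose and 1 fell. CBR1 and CBR3, the cytosolic carbonyl reductases, PTGR1, ALDH3A2, the fatty aldehyde dehydrogenase, and the short-chain reductase DHRS11 were higher by 11.03% to 29.5% of their mean TPM. DHRS3, a retinal reductase, was lower. Of the 50 members 28 averaged at least 1 TPM over the 12 samples and were tested (limma on log2(TPM + 1), two-sided, Benjamini-Hochberg adjustment over 14520 genes, threshold 0.05), and 22 of these 28 did not pass. The 5 higher members were 17.9% of those tested, beside 11.7% of all genes tested that were called higher, and the 1 lower member was 3.57%, beside 5.63% of all genes called lower. The median log2 fold change was 0.06 over the 28 members and 0.03 over all genes tested. Of the 28 estimates 21 were above 0, but the median over all genes was above 0 as well. With some other scalings of the samples the estimates of ALDH18A1, ALDH4A1, CBR4, ALDH5A1 and ALDH6A1 were below 0. At an unadjusted p under 0.05 the counts were 11 higher and 1 lower, 12 of 28, beside 30.7% of all genes tested in either direction.

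Without normoxia replicates 4 to 6 the same test called 4 members higher and 1 lower, beside 6.89% and 2.58% of all genes. ALDH3A2 was the member lost (adjusted p = 0.0705). Without normoxia replicates 1 to 3 it called 4 higher and none lower, beside 5.43% and 3.05% of all genes. CBR3 (adjusted p = 0.0790) and DHRS3 (adjusted p = 0.201) were lost there. All 4 higher members of each fit belonged to the 5.

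The summed TPM of the 50 members ranged from 843 to 915 in normoxia with a median of 884, and from 930.8 to 988 in hyperoxia with a median of 957. All 6 hyperoxia sums were above all 6 normoxia sums. CBR1, ADH5 and AKR1B1 together gave 41.6% of the sum in normoxia and 42.1% in hyperoxia. By family the sums of the CBR genes (159 to 184 TPM in normoxia, 195 to 223 TPM in hyperoxia) and of the PTGR genes (57.3 to 62.7 TPM and 66.5 to 73.3 TPM) did not overlap between the groups. Most of the CBR sum came from CBR1 (means of 154 and 184 TPM in normoxia and hyperoxia). Most of the PTGR sum came from PTGR1 (50.6 and 56.2 TPM). The sums of the ALDH, AKR, ADH and DHRS genes did overlap. These sums describe the members and were not tested. In such bulk samples a change in the mix of cells and a change in RNA per cell cannot be told apart.

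**Figure D1:**
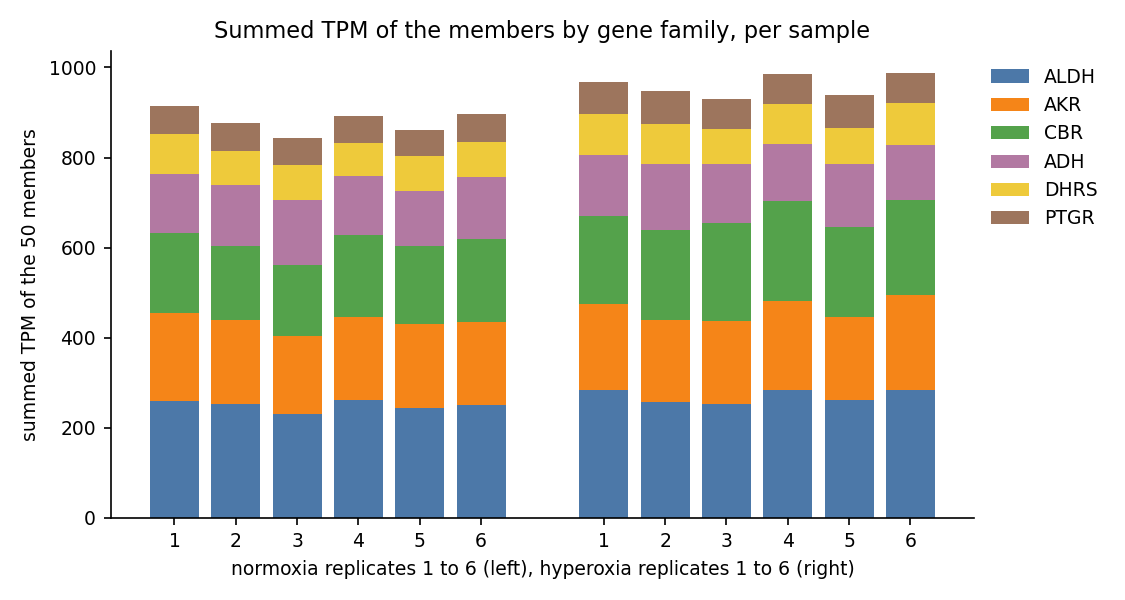
Stacked bars of summed TPM of the 50 members (vertical axis) in each of the 12 samples, normoxia on the left and hyperoxia on the right, with 1 colour per gene family. The hyperoxia bars reach 930.8 to 988 TPM and the normoxia bars 843 to 915 TPM.

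**Figure D2:**
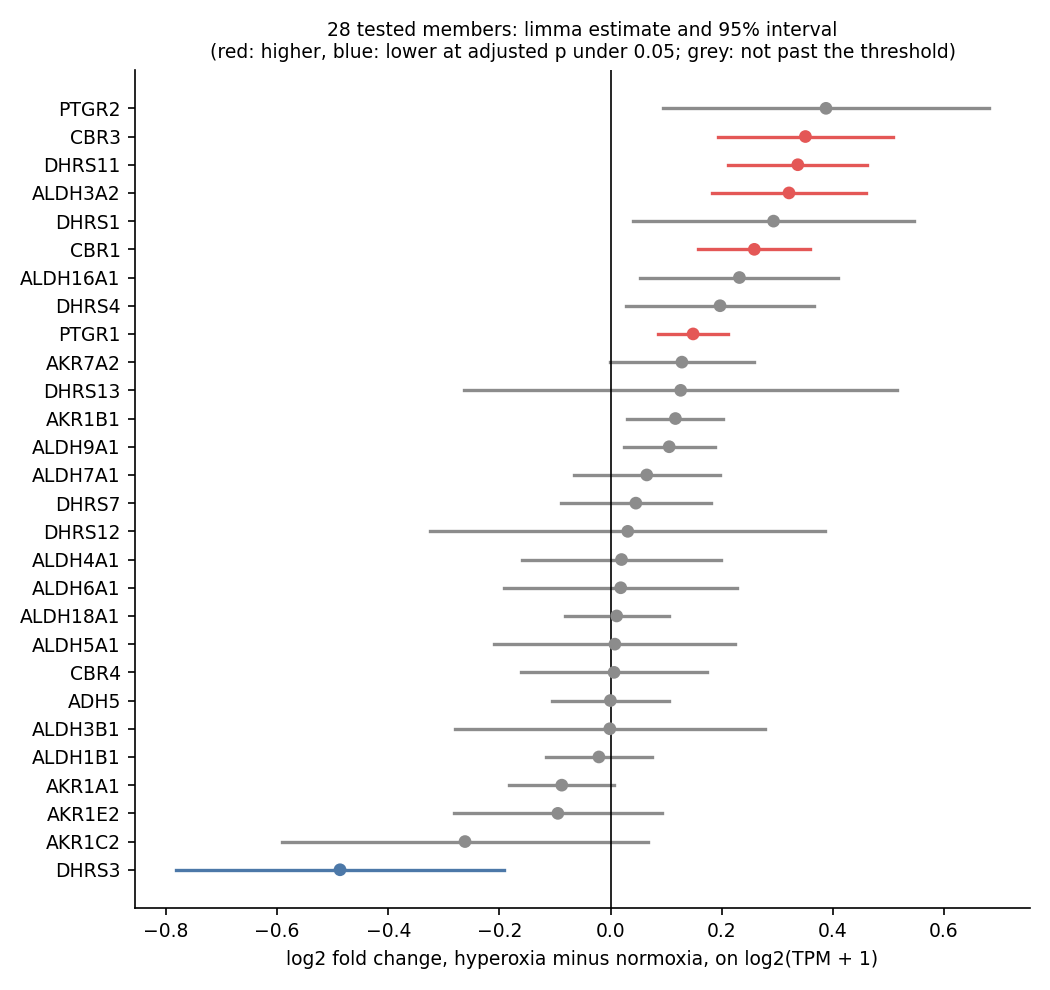
Log2 fold change of each of the 28 tested members on the log2(TPM + 1) scale (horizontal axis, points, with 95% intervals from limma as lines). The 5 members called higher are red, DHRS3 is blue and the 22 members that did not pass are grey.

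Of the 3 carbonyl reductases CBR1 and CBR3 rose, beside 11.7% of all genes tested. The family was not tested as a set. CBR1 (ENSG00000159228), which reduces quinones, prostaglandins and anthracycline drugs, was the most abundant member. It measured 139.8 to 163 TPM in normoxia with a median of 158, and 173 to 198 TPM in hyperoxia with a median of 183. Every hyperoxia sample lay above every normoxia sample. The mean went from 154 ± 9.38 to 184 ± 10.1 TPM (SD, n = 6 each), a log2 fold change of 0.26 (SE 0.05 and adjusted p = 0.00241 by limma). CBR3 (ENSG00000159231), its close relative with a narrower range of substrates and the next protein-coding gene on the chromosome in the RefSeq annotation, was far less abundant. Its values were 11.8 to 15.6 TPM in normoxia (median 13.3) and 15.0 to 19.3 TPM in hyperoxia (median 17.3). Of the 6 hyperoxia samples 5 lay above the highest normoxia sample, so the groups overlapped by 1 sample. CBR3 rose from 13.5 ± 1.36 to 17.4 ± 1.61 TPM (SD over 6 samples per group, log2 difference 0.35, SE 0.07 and adjusted p = 0.0055 by limma). In GENCODE 29 exons of both genes overlap antisense genes, AP000688.1 at CBR1 (0.47 and 0.51 TPM in normoxia and hyperoxia) and CBR3-AS1 at CBR3 (2.36 and 2.57 TPM). Whether reads were counted by strand is not given in the sources used here. CBR4, a mitochondrial reductase of fatty acid synthesis, averaged 5.67 TPM in each group and did not pass (log2 fold change 0.01, 95% interval -0.16 to 0.17). CBR4 exons overlap those of PALLD on the other strand in GENCODE 29. PALLD measured 13.2 and 15.5 TPM in normoxia and hyperoxia.

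The NRF2 binding element has the core TGACNNNGC. This core was searched on both strands in the RefSeq promoter table (GRCh38.p14), which spans 250 bases before to 50 after each transcript start and matched 43 of the 50 members. The matched members had 62 promoters, of which 5 (8.06%), in 4 genes, held the core, against 13.3% of the 35116 promoters in the table. Of the 6 members that rose or fell 5 were matched, and of these only CBR1 held it. The member not matched was CBR3. The 250 bases before the CBR1 start site, at chr21:36069774-36070023 on the plus strand, are shown because CBR1 was the most abundant member that rose. Capitals mark the match, which reads TGACTTTGC on the minus strand and spans bases -159 to -151 counted from the start site.
CBR1 promoter: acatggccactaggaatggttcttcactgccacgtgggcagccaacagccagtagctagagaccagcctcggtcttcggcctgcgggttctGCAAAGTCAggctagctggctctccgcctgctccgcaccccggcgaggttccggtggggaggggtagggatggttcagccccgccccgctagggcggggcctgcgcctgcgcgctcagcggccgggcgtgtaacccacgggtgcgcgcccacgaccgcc
The other members with a match were AKR7A2, DHRS1 and DHRS9, of which the first 2 were tested and did not pass. A match says only that these letters are present, and binding was not measured.

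Prostaglandin reductase 1 (PTGR1, ENSG00000106853) inactivates leukotriene B and reduces enals such as hydroxynonenal. Relative to its mean it had the narrowest spread of the members that rose. It measured 48.4 to 52.3 TPM in normoxia (median 50.9) and 55.5 to 57.2 TPM in hyperoxia (median 56.2), without overlap. The rise from 50.6 ± 1.45 to 56.2 ± 0.58 TPM (SD, n = 6 each) was small, at 11.03% of the mean or 0.15 on the log2 scale (SE 0.03 and adjusted p = 0.00406 by limma). PTGR2 (ENSG00000140043), which reduces keto-prostaglandins, had the highest estimate among the members at a log2 fold change of 0.39 but scattered widely. Its values were 7.44 to 12.9 TPM in normoxia (median 9.62) and 10.01 to 17.2 TPM in hyperoxia (median 12.7), so that 3 of 6 hyperoxia samples lay above all normoxia samples. PTGR2 did not pass (SE 0.14, 95% interval 0.09 to 0.68 and adjusted p = 0.0675 by limma). It passed without normoxia replicate 6 (adjusted p = 0.0318) or without hyperoxia replicate 6 (adjusted p = 0.0377). PTGR2 shares exons with ZNF410 on the same strand in GENCODE 29, and ZNF410 measured 36.8 and 38.4 TPM in normoxia and hyperoxia. Reads of the 2 genes could be split differently by the counting.

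Of the 10 ALDH members tested 1 passed, beside 17.3% of all genes tested, so this count does not set the family apart. The member was ALDH3A2 (ENSG00000072210), the membrane-bound enzyme of the endoplasmic reticulum that oxidises long-chain fatty aldehydes. Its values ran from 44.3 to 54.65 TPM in normoxia (median 48.5) and from 55.65 to 68.2 TPM in hyperoxia (median 61.8). The groups did not overlap, although the lowest hyperoxia sample was close to the highest normoxia sample. The mean went from 49.1 ± 4.08 to 61.6 ± 5.29 TPM (SD, n = 6 each), a log2 fold change of 0.32 (SE 0.06 and adjusted p = 0.00459 by limma). The other tested enzymes of the lipid aldehyde group did not pass. ALDH1B1, a mitochondrial acetaldehyde dehydrogenase, averaged 18.4 ± 0.78 and 18.2 ± 0.90 TPM (SD, n = 6 each; 95% interval of the log2 difference -0.12 to 0.07). ALDH3B1 averaged 11.6 ± 1.61 and 11.7 ± 2.54 TPM with the wider interval of -0.28 to 0.28. ALDH3A1, the corneal and stress-inducible form, reached 0.09 TPM at most, and ALDH3B2 was listed above 0 in 1 of 12 samples.

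Among the DHRS genes 1 rose and 1 fell of 7 tested, beside 11.7% and 5.63% of all genes. DHRS11 (ENSG00000278535), a cytosolic reductase of ketosteroids and dicarbonyls, had the smallest p of all members. It measured 11.02 to 13.5 TPM in normoxia (median 12.5) and 14.9 to 17.4 TPM in hyperoxia (median 15.6), with no overlap. It rose from 12.4 ± 0.97 to 15.9 ± 0.97 TPM (SD over 6 samples per group, log2 difference 0.34, SE 0.06 and adjusted p = 0.00181 by limma). DHRS3 (ENSG00000162496), which turns retinal back into retinol and is itself induced by retinoic acid, was near the lower limit of the test. It had 1.40 to 3.08 TPM in normoxia (median 2.12) and 0.86 to 1.75 TPM in hyperoxia (median 1.22), and 4 of 6 hyperoxia samples lay below all normoxia samples. The mean fell from 2.20 ± 0.55 to 1.27 ± 0.33 TPM (SD over 6 samples per group, log2 difference -0.49, SE 0.14 and adjusted p = 0.0269 by limma). The DHRS3 call was lost when normoxia replicate 1 or 2 or hyperoxia replicate 1 or 5 was left out (adjusted p from 0.0542 to 0.0561). It was also lost with the replicate block (0.0825), the exact rank-sum test (0.0559) and no filter on low values (0.0673).

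The remaining DHRS genes did not pass. DHRS1 averaged 9.95 ± 1.42 and 12.5 ± 2.44 TPM (SD over 6 samples per group, log2 difference 0.29, 95% interval 0.04 to 0.55 and adjusted p = 0.105 by limma). DHRS4, a peroxisomal carbonyl reductase, averaged 7.54 ± 0.96 and 8.77 ± 0.76 TPM (log2 fold change 0.20, 95% interval 0.03 to 0.37, adjusted p = 0.105), and its near copy DHRS4L2 averaged 2.84 and 2.98 TPM. DHRS4 passed without normoxia replicate 1 (adjusted p = 0.0270). DHRS7 was the most abundant of the series at 41.9 ± 3.37 and 43.3 ± 3.56 TPM. DHRS13 and DHRS12 averaged below 4 TPM in each group, and their intervals were the widest among the DHRS genes that did not pass, at -0.26 to 0.52 and -0.32 to 0.39.

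Across the 6 members that rose or fell, 4 showed no overlap between the groups (CBR1, PTGR1, ALDH3A2 and DHRS11), all with hyperoxia higher. Over all 28 tested members the count was the same 4 with hyperoxia higher and 0 with hyperoxia lower, beside 6.2% and 2.58% of all genes tested.

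**Figure D3:**
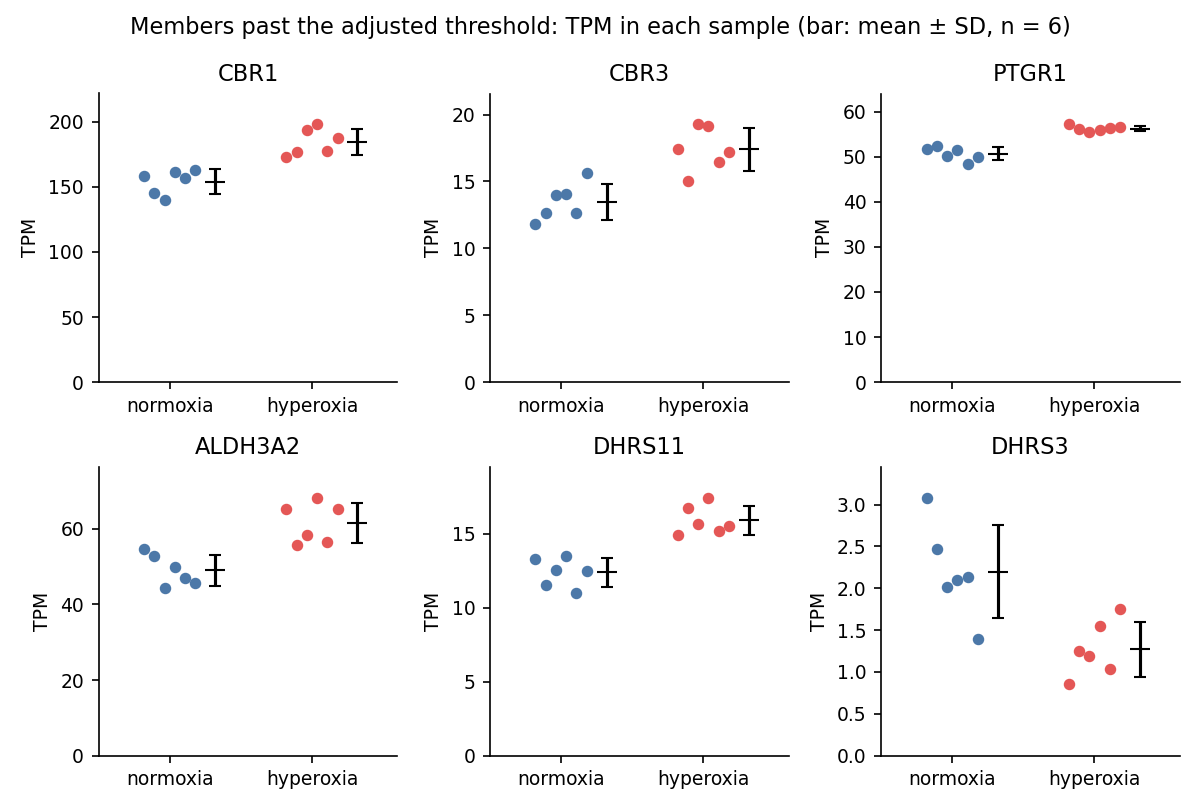
TPM (vertical axes, each from 0) of the 6 members that passed the test, with 1 point per sample and bars for mean ± SD (n = 6 per group). The groups are apart for CBR1, PTGR1, ALDH3A2 and DHRS11 and overlap for CBR3 and DHRS3.

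The AKR1 genes of the line were few. Of 10 in the table, AKR1B1, AKR1A1, AKR1E2 and AKR1C2 averaged at least 1 TPM, and the other 6 did not. AKR1B1 (ENSG00000085662), the aldose reductase that reduces glucose and lipid aldehydes, was the third most abundant member. It had 75.5 to 83.6 TPM in normoxia (median 79.5) and 81.4 to 94.8 TPM in hyperoxia (median 85.1), with 5 of 6 hyperoxia samples above all normoxia samples. At 79.5 ± 3.23 against 86.3 ± 4.52 TPM (SD, n = 6 each) it just missed the threshold (log2 fold change 0.12, SE 0.04, 95% interval 0.03 to 0.20 and adjusted p = 0.0619 by limma). It passed without hyperoxia replicate 5 (adjusted p = 0.0486). AKR1A1 (ENSG00000117448), the general aldehyde reductase, had 51.1 to 55.8 TPM in normoxia (median 54.8) and 48.0 to 57.0 TPM in hyperoxia (median 50.5). Its means were 54.4 ± 1.71 and 51.2 ± 3.36 TPM (SD over 6 samples per group, log2 difference -0.09, SE 0.04 and adjusted p = 0.194 by limma). With other scalings of the samples AKR1A1 passed as lower (adjusted p = 0.0430 to 0.0458), and it also passed without hyperoxia replicate 6 (adjusted p = 0.0486).

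AKR1E2, an anhydrofructose reductase, had 5.31 to 6.68 TPM in normoxia (median 5.71) and 4.17 to 6.56 TPM in hyperoxia (median 5.43) and did not pass (log2 fold change -0.09, 95% interval -0.28 to 0.09). AKR1C2 (ENSG00000151632), a hydroxysteroid dehydrogenase that inactivates dihydrotestosterone, was the only AKR1C gene to be tested. Its values were 1.88 to 4.22 TPM in normoxia (median 2.46) and 1.54 to 2.68 TPM in hyperoxia (median 1.85), with wide overlap (log2 fold change -0.26, SE 0.15, 95% interval -0.59 to 0.07 and adjusted p = 0.27 by limma).

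The AKR1 genes at or near 0 included those best known as NRF2 targets in lung tumours. AKR1B10, the intestinal reductase of retinal and enals, was listed at 0 in 6 of 12 samples and reached 0.11 TPM in normoxia and 0.38 TPM in hyperoxia. AKR1C3, a hydroxysteroid dehydrogenase that forms testosterone, was listed at 0 in 3 samples and reached 0.28 and 0.73 TPM. AKR1C1, which inactivates progesterone, had 0.13 to 0.61 TPM in normoxia (median 0.295) and 0.07 to 1.09 TPM in hyperoxia (median 0.425). AKR1B15, a near copy of AKR1B10, stayed between 0.03 and 0.50 TPM. AKR1D1, the hepatic steroid reductase of bile acid synthesis, was above 0 in 2 samples only, both in hyperoxia, at 0.04 and 0.05 TPM. AKR1C4, a liver form, was listed at 0 in all 12 samples. In order of mean level AKR1B1, AKR1A1 and AKR1E2 had ranges over the 12 samples that did not overlap with the next gene down, except that the highest AKR1C2 value (4.22 TPM) passed the lowest AKR1E2 value (4.17 TPM). AKR1C2 stayed above AKR1C1, whereas AKR1C1, AKR1B15, AKR1C3 and AKR1B10 overlapped from neighbour to neighbour.

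**Figure D4:**
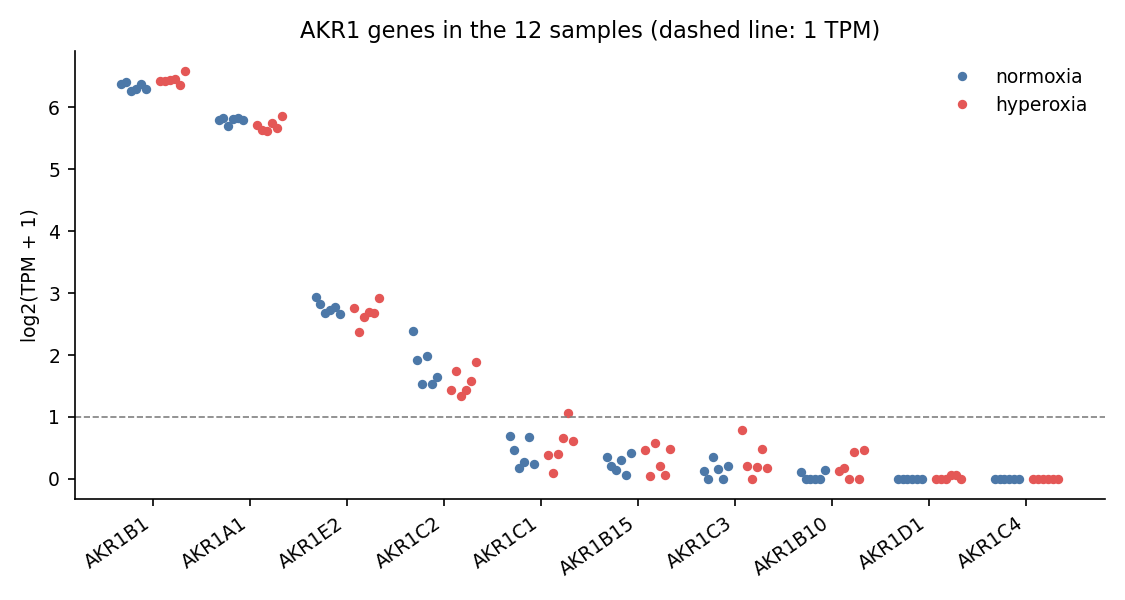
Log2(TPM + 1) (vertical axis) of the 10 AKR1 genes (horizontal axis) in the 12 samples, with normoxia in blue and hyperoxia in red and a dashed line at 1 TPM. AKR1B1, AKR1A1, AKR1E2 and AKR1C2 lie above the line, and of the other 6 only AKR1C1 crosses it, in 1 hyperoxia sample at 1.09 TPM.

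The AKR1C genes are difficult to separate by sequencing. The first 90 coding bases of the GENCODE 29 transcripts are shown to make this visible. The reading frame is the longest that a search of each transcript found, and capitals mark bases that differ from AKR1C2.
AKR1C1: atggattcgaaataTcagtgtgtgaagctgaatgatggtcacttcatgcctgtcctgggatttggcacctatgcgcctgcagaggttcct
AKR1C2: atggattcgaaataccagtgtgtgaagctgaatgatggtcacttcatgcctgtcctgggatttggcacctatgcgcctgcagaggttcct
AKR1C3: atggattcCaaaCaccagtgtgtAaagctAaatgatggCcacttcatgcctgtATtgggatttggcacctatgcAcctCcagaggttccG
AKR1C4: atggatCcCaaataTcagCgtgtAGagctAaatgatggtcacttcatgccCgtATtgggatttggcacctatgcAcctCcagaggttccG
Over the 972 coding bases AKR1C1 and AKR1C2 differed at 19 positions (98.0% identity), with an identical run of 189 bases, whereas AKR1C2 and AKR1C3 differed at 87 (91.0%) and AKR1C2 and AKR1C4 at 119 (87.8%). How reads that match several genes were assigned is not given in the sources used here, so the division of reads between AKR1C1 and AKR1C2 is uncertain. The table also gives AKR1C1 a length of 6543 bases, AKR1C2 3756 and AKR1C3 972, and a TPM value depends on the length used.

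The aldehyde dehydrogenases of amino acid, choline and folate metabolism had 0 of 6 tested genes past the threshold by limma. Only ALDH9A1 (1 of 6) had an unadjusted p under 0.05, and the exact rank-sum test called 0. Of all genes tested 17.3% passed and 30.7% had an unadjusted p under 0.05, so with 6 genes a count of 0 or 1 does not set this group apart. ALDH18A1, which starts proline synthesis, averaged 51.6 ± 3.31 and 51.9 ± 1.71 TPM (SD, n = 6 each), and its 95% interval of the log2 difference was -0.08 to 0.10. ALDH4A1, of proline breakdown, averaged 16.3 ± 1.93 and 16.5 ± 1.63 TPM. ALDH7A1, of lysine breakdown and betaine synthesis, averaged 47.5 ± 1.82 and 49.9 ± 5.12 TPM (95% interval -0.07 to 0.20). ALDH9A1, of carnitine synthesis, was the nearest to the threshold. It had 35.1 to 37.8 TPM in normoxia and 37.5 to 43.0 TPM in hyperoxia, with 5 of 6 hyperoxia samples above all normoxia samples (log2 fold change 0.11, SE 0.04 and adjusted p = 0.0734 by limma). ALDH5A1, which clears succinic semialdehyde from GABA, and ALDH6A1, of valine breakdown, averaged below 5 TPM in each group.

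ALDH16A1 averaged 10.4 ± 0.94 and 12.4 ± 1.67 TPM (SD over 6 samples per group, log2 difference 0.23, SE 0.08 and adjusted p = 0.0712 by limma). It passed without hyperoxia replicate 3 (adjusted p = 0.0439). ALDH16A1 exons overlap those of PIH1D1 on the other strand in GENCODE 29, and PIH1D1 measured 60.8 and 61.9 TPM. AKR7A2, the aflatoxin aldehyde and succinic semialdehyde reductase, averaged 41.3 ± 3.84 and 45.2 ± 2.64 TPM (log2 fold change 0.13, SE 0.06, 95% interval -0.00051 to 0.26 and adjusted p = 0.165 by limma). It passed without normoxia replicate 1 (adjusted p = 0.0481).

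Of the 7 alcohol dehydrogenases only ADH5 (ENSG00000197894) averaged at least 1 TPM. This enzyme oxidises formaldehyde bound to glutathione and breaks down nitrosoglutathione, and it was the next most abundant member after CBR1. It had 121.7 to 143 TPM in normoxia (median 133) and 122.8 to 148 TPM in hyperoxia (median 132). The means were 133 ± 7.35 and 133 ± 9.02 TPM (SD, n = 6 each), and the 95% interval of the log2 difference ran from -0.11 to 0.11. The ethanol-oxidising ADH1A, ADH1B and ADH1C, with ADH4 and ADH7, reached 0.16 TPM at most, and ADH6 stayed between 0.09 and 0.68 TPM.

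The 22 members that were not tested never exceeded 1.15 TPM. Of these, 3 were listed at 0 in all 12 samples (ADH1A, AKR1C4 and DHRS9) and 19 never reached 1 TPM. The 3 that did were AKR7A3 (up to 1.15 TPM), AKR1C1 (1.09) and ALDH1A2 (1.06). All 4 enzymes grouped here as retinal dehydrogenases fell in this set, with ALDH1A1, a stem cell marker in many tumours, at 0.05 to 0.35 TPM in normoxia and 0 to 0.44 TPM in hyperoxia, and ALDH1A3 at 0.15 to 0.73 and 0.32 to 0.98 TPM. ALDH8A1 reached 0.14 TPM. DHRS2 was at 0.23 to 0.67 TPM in normoxia and 0 to 0.51 TPM in hyperoxia, and the folate enzyme ALDH1L1 reached 0.17 TPM. Nearest to the minimum of the test were DHRS12 and DHRS3 above it, at a mean of 1.58 and 1.74 TPM over the 12 samples, and AKR7A3 and ALDH1A3 below it, at 0.56 and 0.53 TPM.

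Other genes of carbonyl metabolism outside the symbol pattern were taken from lists, and 4 rose and 4 fell among 40 tested, beside 11.7% and 5.63% of all genes. Of 5 tested genes of glyoxal and formaldehyde clearance only GLOD4, a glyoxalase-domain protein, rose (log2 fold change 0.17, SE 0.04 and adjusted p = 0.0208 by limma). The glyoxalase GLO1 averaged 179 and 184 TPM. Of 10 tested quinone and enone reductases NQO1 rose by 0.92 on the log2 scale (SE 0.03), from 323 to 614 TPM, RTN4IP1, a mitochondrial reductase, fell by 0.35, and 8 did not pass. Of 6 tested aldehyde, alcohol and amine oxidising enzymes 0 passed by limma, 0 had an unadjusted p under 0.05 and 0 passed by the exact rank-sum test. Among them the mitochondrial ALDH2 averaged 2.46 and 2.82 TPM (adjusted p = 0.449). Of 19 other short-chain dehydrogenases RDH11, a retinal reductase, and HSD17B14 rose by 0.13 and 0.44, while HSD17B11, RDH5 and HSD17B8, the partner subunit of CBR4, fell by 0.20, 0.35 and 0.44.

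The authors' deposited table holds its own fold change and adjusted p per gene. At an adjusted p under 0.05 the authors' deposited table gave 7 of the 28 tested members as higher and 1 as lower, beside 15.7% and 14.3% of the same 14520 genes. All 6 members called from TPM were among these 8, and the other 2 were PTGR2 (adjusted p = 6.05e-05 in the authors' deposited table) and AKR1B1 (0.0246). Sizes were similar for the members that rose, with a fold change in the authors' deposited table of 1.27 for DHRS11, 1.28 for CBR3, 1.22 for ALDH3A2, 1.18 for CBR1 and 1.09 for PTGR1, and for DHRS3 it was 0.664 against a ratio of mean TPM of 0.58. For AKR1C1 the 2 sources pointed in opposite directions, with a fold change of 0.725 in the authors' deposited table (adjusted p = 0.367) and a ratio of mean TPM of 1.38. The signs also differed for 6 tested members, ALDH5A1, ADH5, DHRS12, ALDH3B1, CBR4 and ALDH18A1, which passed in neither source. Among members not tested they differed as well for ALDH1A3 (0.892 in the authors' deposited table against a ratio of mean TPM of 1.62) and for ALDH3A1, which did not exceed 0.09 TPM.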

How the data were processed

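RNA of 12 H1299 samples (6 per group) was sequenced. Per the submitters' processing notes the authors used HTSeq 0.9.1 and edgeR 3.16.5, with no step named for either, and the notes also list a mouse genome build although all gene identifiers are human, so no coordinates of the files are given. The deposited values per sample are TPM per the file headers and how they, or the alignments, were made is not stated there. The labels and the design text name different library kits, so whether strand was kept is unsettled. Per the file headers the authors also deposited group means, a linear fold ratio with a log2 value, p-values, adjusted p-values and gene lengths. In 78 genes, none of them a member, these deposited numbers disagreed with each other (by more than 1e-06 in log2 or 1e-04 TPM). A row without a gene identifier was dropped.

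Members and lists were chosen with earlier results of these data known. Genes with a mean of at least 1 TPM were tested with limma 3.58.1 in R 4.3.3 (eBayes with trend) on log2(TPM + 1) with Benjamini-Hochberg adjustment, so fold changes of low genes are understated. Members past the threshold and all AKR1 genes are given in full, tested members among the 8 most abundant with their means, untested members with their highest value, and up to 4 other genes per list by smallest p. Any further gene named was picked with its values in view. The code was checked on artificial data with known changes. Alternatives were another pseudocount, other minimums, 3 scalings, no trend, an exact rank-sum test over 924 arrangements, a replicate block and leaving out samples. Sequences came from RefSeq (GRCh38.p14) and GENCODE 29.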

Additional observations from a re-analysis of the deposited data

Results flagged for a closer look

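Dixon's ratio was computed for 34 genes in each group, 68 in all, and a sample stood apart in 2 of them, where chance alone would mark about 1 in 20. AKR1A1 measured 51.1 TPM in normoxia replicate 3, with the other 5 normoxia samples between 54.4 and 55.8 TPM. CBR4 measured 6.29 TPM in hyperoxia replicate 2, with the other 5 hyperoxia samples between 5.45 and 5.69 TPM. Neither gene passed the test of the groups on all samples.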

How the results depend on the processing

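Over all alternatives 4 to 7 members were called higher. CBR1, PTGR1 and DHRS11 passed in each of the 24 fits, ALDH3A2 and CBR3 in 23. The count of lower members was 2 with TMM factors, median-of-ratios scaling and quantile normalisation (DHRS3 and AKR1A1). It was 0 with the exact rank-sum test, no filter on low values, the replicate block and, added after seeing the data, without normoxia replicates 1 to 3. It was also 0 with a minimum mean of 5 TPM, but that minimum removed DHRS3 before the test. Leaving out a sample gave 5 to 7 higher, 0 to 2 lower and 1969 to 2456 genes over the whole table, against 2516. Without normoxia replicates 1 to 3 or 4 to 6, which removes samples, 1231 and 1375 genes were called. With the replicate block DHRS1 passed as well (adjusted p = 0.0374) and 2545 genes were called; same-numbered samples did not deviate together (correlations of -0.12 to 0.02), and 1 of 12 correlated best with its own number. The estimates that changed sign belonged to members that passed nowhere. With TMM factors, median-of-ratios scaling and quantile normalisation they were -0.017, -0.019 and -0.023 for ALDH18A1, -0.0073, -0.0091 and -0.0091 for ALDH4A1, -0.018, -0.019 and -0.013 for CBR4 and -0.016, -0.017 and -0.0064 for ALDH5A1, and with the first 2 -0.0032 and -0.0045 for ALDH6A1. Without normoxia replicates 1 to 3 they were 0.035 for ADH5, -0.053 for ALDH18A1, -0.0049 for ALDH4A1 and -0.13 for DHRS12, and without 4 to 6 -0.0063 for DHRS7, 0.020 for ALDH1B1, 0.067 for ALDH3B1, -0.0063 for CBR4, -0.0076 for ALDH5A1 and -0.0021 for ALDH6A1. Leaving out single samples they ranged from -0.031 to 0.022 for ADH5, -0.0059 to 0.037 for ALDH18A1, -0.071 to 0.080 for ALDH3B1, -0.044 to 0.048 for ALDH4A1, -0.034 to 0.062 for ALDH5A1, -0.018 to 0.074 for ALDH6A1, -0.041 to 0.046 for CBR4 and -0.061 to 0.12 for DHRS12. The causes were not tested. Sequencing depth is unknown, so no counting error could be given.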
